A study of Mus musculus with 6 samples.

Results

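The genes described here encode core spliceosome proteins, SR splicing factors and hnRNP proteins, and were followed in mouse C5aR+ LysoDCs with and without C5a. Members were all genes whose symbol begins with Snrp, Sf3a, Sf3b, Srsf or Hnrnp, found through the RefSeq accession of each array probe. The rule itself used no measured value, but the families were chosen with earlier results of these data known. It gave 53 genes with 94 probes, of 22911 named genes on the array. They comprised 12 snRNP proteins, 9 subunits of SF3A and SF3B, 11 SR proteins and 21 hnRNP proteins, 1 of which, Hnrnpa1l2-ps2, has a pseudogene symbol. Of the 53, 42 had a probe bright enough to be tested and 11 did not.

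LysoDCs are phagocytes that make lysozyme and lie in the Peyer's patches, lymphoid tissue of the gut wall, and C5aR is the receptor for the complement fragment C5a. CD11c+ cells were enriched with microbeads, C5aR+ LysoDCs were sorted, and the sorted cells were cultured in medium with CSF-1 and a factor that the labels write as CFS-2. The 3 treated samples received recombinant C5a at 100 nM for 3 h, and the 3 untreated samples (0 nM) carry no culture time in the labels. All samples are labelled Mus musculus and Peyer's patch, and no strain, genotype or age is given in the sources used here. Nothing in the labels says that the numbered samples of a group came from separate animals or cultures, so the p values measure only the spread between these samples, which may be technical. Each sample was read on 1 one-colour Agilent array.

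Levels are log2 signals relative to the 75th percentile of the same array over probes detected on all 6 arrays, so that 0 is a fairly bright detected probe and each step of 1 is a doubling. Differences are log2 values of C5a minus untreated, with the standard error (SE) of a limma fit over all genes. A gene was tested where a probe was well above background, by the scanner software's own flag, on at least 3 of the 6 arrays. A probe's brightness also depends on its sequence, so levels are not set against each other between genes.

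Introns are removed from new transcripts by the spliceosome, which is built from small nuclear ribonucleoproteins (snRNPs). The Sm proteins form a ring around the RNA of most snRNPs, U1 proteins help to recognise the start of an intron, and SF3A and SF3B, parts of the U2 snRNP, hold the branch site near its end. SR proteins bind exons and mostly favour their inclusion, while hnRNP proteins coat the new transcript and often repress splice sites, and both also act in export, stability or translation of mRNA. In phagocytes, alternative splicing and mRNA decay shape the output of receptors and cytokines after activation.

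The promoters of 3 genes are shown because theirs were the only tested members whose 3 C5a values all lay on 1 side of the 3 untreated values. Each sequence is the 250 bases before the RefSeq start of the gene in GRCm38.p6, read 5′ to 3′ on the gene's own strand. Capitals mark matches to 3 of the motifs searched, on either strand, namely the CCAAT box, the TATAAA box and the core CCGGAAG that ETS factors bind. The sequences are those of Snrpd3 (chr10:75517792-75518041, plus strand), Srsf11 (chr3:158036607-158036856, minus strand) and Srsf3 (chr17:29032410-29032659, plus strand).
Snrpd3: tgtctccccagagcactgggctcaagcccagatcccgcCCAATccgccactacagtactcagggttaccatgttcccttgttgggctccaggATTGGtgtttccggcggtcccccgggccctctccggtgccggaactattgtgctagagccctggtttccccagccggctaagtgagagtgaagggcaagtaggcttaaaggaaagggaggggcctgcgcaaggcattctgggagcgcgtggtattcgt
Srsf11: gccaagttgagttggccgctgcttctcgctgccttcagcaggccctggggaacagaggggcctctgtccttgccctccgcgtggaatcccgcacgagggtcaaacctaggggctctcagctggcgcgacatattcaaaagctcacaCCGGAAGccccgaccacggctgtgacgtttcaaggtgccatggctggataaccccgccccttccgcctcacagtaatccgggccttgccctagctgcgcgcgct
Srsf3: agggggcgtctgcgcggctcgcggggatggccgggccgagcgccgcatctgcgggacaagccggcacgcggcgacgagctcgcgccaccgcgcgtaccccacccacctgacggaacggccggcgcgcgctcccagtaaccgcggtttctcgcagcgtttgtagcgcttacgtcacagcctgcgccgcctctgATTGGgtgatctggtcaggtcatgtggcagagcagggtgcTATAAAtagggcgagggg

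The 3 windows shared no marked motif across all of them. Snrpd3 had CCAAT matches whose first base lay at -212 and -158 from the start, the latter on the opposite strand. Srsf11 had a CCGGAAG match at -104, and Srsf3 had a TATAAA match at -18 and a CCAAT match on the opposite strand at -58. Windows were on file for 47 of the 53 members. CCGGAAG was present in 15 of the 47 (31.9%). These were Sf3a1, Sf3a2, Sf3a3, Sf3b2, Sf3b3, Sf3b6, Snrpb2, Snrpc, Snrpg, Srsf4, Srsf5, Srsf7, Srsf11, Hnrnpd and Hnrnpf. The share was 15.3% in the windows of 2658 tested genes and 7.05% in those of 27025 genes of the table. CCAAT was found in 22 members (46.8%), against 35.2% of tested genes and 34.5% of all. TATAAA was found in 6 (12.8%), against 8.13% and 13.0%. The AP-1 motif TGANTCA was in 2 windows (Hnrnpa1 and Snrpc; 4.26%), against 4.78% and 6.87%, and the cyclic AMP response element TGACGTCA in 2 (Snrpa and Snrpg), against 2.90% and 1.62%. The NRF1 core GCATGCGC was in 1 (Srsf7; 2.13%), against 4.67% and 2.32%. GC content had a median of 60.4% in members and 60% in tested genes, with a median of 19 and 16 CpG sites. These matches describe letters in a window and were not measured as binding.

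Over the whole array, 2727 to 6959 of 56605 probes were well above background per sample, and 4488 genes could be tested. The 2 samples numbered 2 were the most completely detected, with 6959 and 6651 probes, and untreated 3 the least. All 13 phagocyte markers listed, Lyz2, Itgax, Csf1r and C5ar1 among them, were well above background on at least 3 arrays. Their summed signal, in multiples of the array's 75th percentile, was 46.0 to 53.0 in untreated and 42.2 to 49.7 in C5a samples. Of the markers of other cells, 0 of 5 T cell, 0 of 6 epithelial, 0 of 4 plasma cell and 0 of 4 neutrophil genes reached that mark, and 1 of 7 B cell (Cd79b) and 1 of 5 stromal genes (Pdpn) did. Pairs of arrays correlated at 0.844 to 0.960 over the tested genes.

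The splicing genes were detected more often than genes in general. Of the 53 members, 42 (79.2%) were well above background on at least 3 arrays, against 14.3% of all named genes, and 16 (30.2%) on all 6, against 6.24%. The 16 were Snrpb, Snrpd1, Snrpe, Snrpg, Sf3a2, Srsf2, Srsf6, Srsf9, Hnrnpa1, Hnrnpa3, Hnrnpab, Hnrnpc, Hnrnpf, Hnrnph1, Hnrnph2 and Hnrnpm. All 9 SF3A and SF3B genes were tested, as were 10 of 12 snRNP genes, 7 of 11 SR genes and 16 of 21 hnRNP genes.

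The other 11 members had too little signal to be tested. Well above background on 0 arrays were Snrpn (SmN, the Sm protein of neurons), Srsf1 (the founding SR protein), Srsf10, Srsf12, Hnrnpr, Hnrnpul1, Hnrnpul2 and Hnrnpa1l2-ps2. Srsf4 was detected on 1 array, and Snrpb2, a U2 protein, and Hnrnpk, which binds C-rich RNA, on 2 each. All 5 probes of Hnrnpr were dim. A dim probe gives only a bound and does not show that the transcript was absent.

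**Figure D1:**
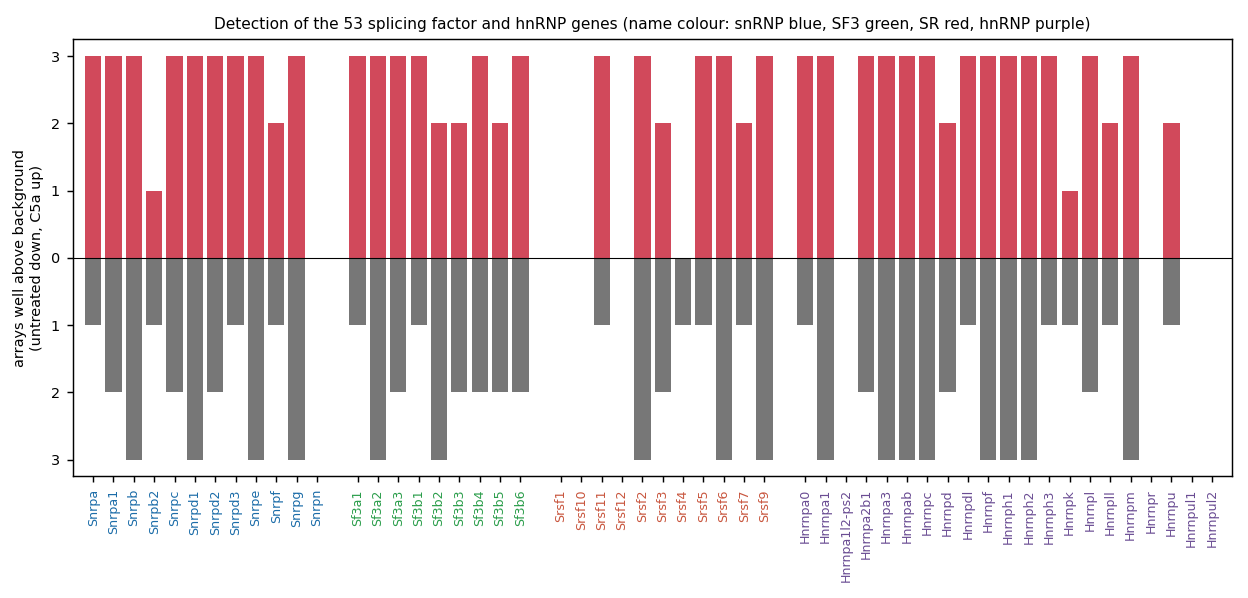
Number of arrays (0 to 3 per group) on which each of the 53 genes was well above background, with untreated arrays drawn downwards and C5a arrays upwards; for untested genes the probe seen on most arrays is drawn. The bars reach 3 in both directions for 16 genes, and 33 of the 42 tested genes reach 3 on the C5a side.

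Detection was uneven between samples of the same group. Of the 42 tested members, untreated 1, 2 and 3 had 28, 42 and 18 well above background, and C5a 1, 2 and 3 had 40, 42 and 35. Between groups, 21 members (50%) were detected on more C5a than untreated arrays, 20 on equal numbers and 1, Sf3b2, on fewer, while 38.1% of all tested genes were seen on more C5a arrays. As the plot of detection shows, 13 members were seen on a single untreated array, Srsf11, Snrpd3 and Hnrnpdl among them. For all 13 it was untreated 2, the array that detected all 42. The whole-array probe counts move the same way (3574, 6959 and 2727 against 4864, 6651 and 3668), and their part in these counts was not tested. No member was seen on all arrays of 1 group and on 0 of the other.

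C5a changed no splicing gene past the threshold. By limma, with p adjusted after Benjamini and Hochberg over 4488 genes, 0 of the 42 members were under 0.05, as did 0 of all genes tested (0%), and no adjusted p was below 0.9992. A limma p under 0.05 before adjustment was reached by 2 members, Srsf11 and Snrpd3, both higher with C5a (4.76% of 42), against 2.34% of all genes in either direction and 1.58% higher with C5a. Both probes were detected on 1 untreated array and on all 3 with C5a, and so passed the filter through the group in which they were higher. Among the 16 members seen on all 6 arrays 0 had such a p, against 17 of 2178 of all genes so detected. At that share, 0 of 16 does not set the members apart. The groups did not overlap in 3 members (7.14%), against 5.68% of all genes: Srsf11 and Snrpd3, higher with C5a (3.36% of all genes), and Srsf3, lower (2.32%). SEs ran from 0.25 to 0.77 with a median of 0.35, which is the precision that 3 arrays per group gave. The arrays read RNA pooled from many cells, so fewer cells of a kind and less RNA per cell cannot be told apart.

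Most differences were above 0, though none was called. The difference was above 0 in 28 of 42 members (66.7%), against 54.9% of all tested genes, and its median was 0.16 against 0.04. Among the 16 members seen on all 6 arrays, 12 were above 0 and the median was 0.15, against 52.2% and 0.01 for all genes so detected. The sign is not settled by these data, since it changed with the background correction and the scaling. With normexp background correction the median of all genes was -0.12 and 11 of 42 members were above 0, and with the percentile over all probes it was 0.40 and 37 of 42 were. Normexp was run with an offset of 50 added to every signal, beside a 75th percentile of 109 to 460 in the processed signals. What part the offset had in the normexp values was not tested. Relative to the median gene of each scaling, 28 members lay above it in the scaling used, 24 with normexp, 28 with the all-probe percentile and 29 with quantile normalization. Without untreated 1 the members' median was 0.050.

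**Figure D2:**
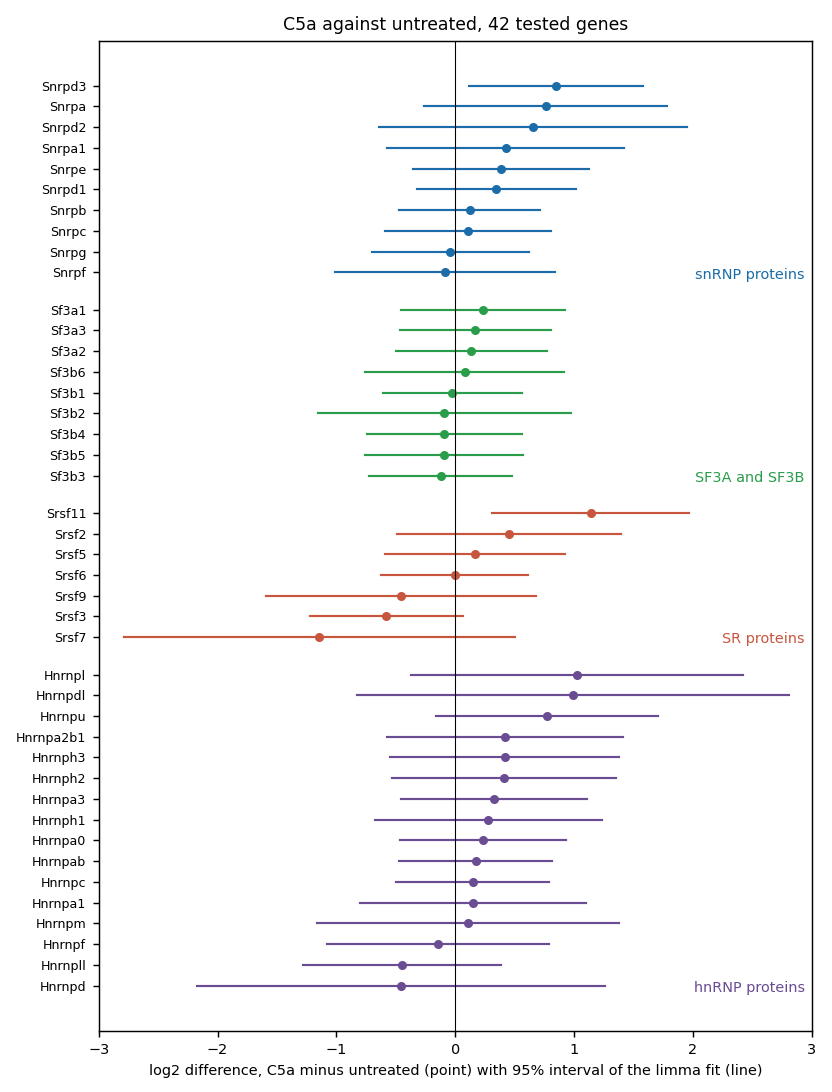
Log2 difference (C5a minus untreated, horizontal axis) of the 42 tested genes, grouped by family, with the 95% interval of the limma fit. The intervals of Srsf11 and Snrpd3 lie above 0 and all others cross it; Srsf7 and Srsf11 lie at the ends, at -1.15 and 1.14.

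Among the snRNP proteins, 8 of 10 differences were above 0, with a median of 0.36 and a range of -0.08 (Snrpf) to 0.85 (Snrpd3), none called. With normexp 3 of 10 were above 0, and 7 lay above the median gene. Snrpd3, the SmD3 subunit of the Sm ring, was at -3.70, -3.67 and -4.42 in untreated 1, 2 and 3 and at -3.26, -3.13 and -2.87 in C5a 1, 2 and 3. The lowest C5a value thus lay above the highest untreated value, by less than the spread among the untreated samples. The difference was 0.85 (SE 0.31, limma unadjusted p = 0.0290, adjusted p = 0.9992), a fold of 1.80 with a 95% interval of 1.08 to 2.98. With normexp it was 0.041 and the groups overlapped. Its probe was well above background on 1 untreated array and all 3 C5a arrays.

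Snrpa, a protein of the U1 snRNP that binds its RNA, was at -5.28, -4.34 and -4.61 untreated and at -3.97, -4.68 and -3.30 with C5a. C5a 2 lay below 2 of the 3 untreated samples, and the difference was 0.76 (SE 0.43), turning to -0.15 with normexp. Snrpf and Snrpg, subunits of the Sm ring, had the differences nearest to 0. Snrpf was at -3.45, -3.82 and -3.49 untreated and -2.91, -3.81 and -4.29 with C5a, so the C5a samples enclosed the untreated ones, and the difference was -0.08 (SE 0.39). Snrpg, well above background on all 6 arrays, was at -2.13, -2.17 and -1.93 against -1.74, -2.34 and -2.28, a difference of -0.04 (SE 0.28) with overlapping groups. The other Sm genes gave 0.12 for Snrpb, 0.35 for Snrpd1, 0.66 for Snrpd2 and 0.38 for Snrpe, with overlapping groups in each for the probe used. Snrpa1, a U2 protein, gave 0.42, and Snrpc, which helps U1 to bind the 5′ splice site, 0.11.

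SF3A and SF3B had the narrowest range of the 4 families: all 9 differences lay between -0.12 and 0.23, with SEs of 0.25 to 0.45. Of the 9 genes, only Sf3a2 was well above background on all 6 arrays. The 3 SF3A subunits were above 0 (Sf3a1 0.23, SE 0.29; Sf3a3 0.17, SE 0.27; Sf3a2 0.13, SE 0.27), and 5 of the 6 SF3B subunits were below 0. With normexp 0 of 9 were above 0 and with the all-probe percentile 9 of 9 were, while all 3 SF3A genes stayed above the median gene under these scalings and quantile normalization. Of the SF3B genes, 1 of 6 lay above the median gene in the scaling used, 0 with normexp, 1 with the all-probe percentile and 2 with quantile normalization. With slide row as a covariate 3 of 6 did, and leaving out samples gave 0 to 3, the most without C5a 3. Without both samples numbered 3, 2 of the 3 SF3A genes lay above the median gene. Whether SF3A and SF3B differed from each other was not tested.

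Sf3a1, which carries the SURP domains of SF3A, was at -4.27, -3.79 and -3.79 untreated and at -3.62, -4.05 and -3.49 with C5a. Sf3a3 was at -3.04, -2.95 and -3.22 against -2.63, -3.18 and -2.89. In both genes C5a 1 and 3 were above all untreated samples and C5a 2 was not. Sf3b1, the large scaffold subunit that grips the branch site, was at -3.71, -3.60 and -3.83 untreated and at -3.88, -3.62 and -3.71 with C5a. All 6 values fell within 0.3 of each other, and the difference was -0.02 (SE 0.25), a fold whose 95% interval ran from 0.657 to 1.47. The Sf3b1 probe was well above background in untreated 2 and in all C5a samples, so untreated 1 and untreated 3 lie near background.

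Sf3b3, the propeller-shaped scaffold beside Sf3b1, was at -3.53, -3.73 and -3.45 against -3.68, -3.53 and -3.87, a difference of -0.12 (SE 0.25). Sf3b5, a small subunit, was at -3.45, -3.78 and -3.70 against -3.47, -3.65 and -4.10, a difference of -0.10 (SE 0.28). Sf3b6, the p14 protein near the branch point, was at -2.40, -3.35 and -3.12 against -2.47, -3.19 and -2.97, a difference of 0.08 (SE 0.36). In Sf3b6 the samples with the same number lay close together across the groups, and the sample numbers separated more than the groups did. Sf3b2 gave -0.09 with the largest SE of the family, 0.45, and C5a 3, at -4.31, was below all of its other samples. Sf3b4 also gave -0.09.

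The SR proteins had the widest range. Of 7 tested, 3 were above 0 and the median was -0.01, but the range ran from -1.15 to 1.14, none called. Srsf11, an SR-related protein that binds U2AF, had the smallest unadjusted p of all members. Its level was -4.55, -3.43 and -3.96 in untreated and -2.77, -3.09 and -2.67 in C5a samples. All C5a values were higher than all untreated values, with untreated 2 only 0.34 below C5a 2. The difference was 1.14 (SE 0.35, limma unadjusted p = 0.0138, adjusted p = 0.9992), a fold of 2.20 with a 95% interval of 1.24 to 3.91. With normexp background correction it was 0.032 and the groups overlapped. Its probe was well above background in untreated 2 and in all C5a samples, so 2 of the 3 untreated values lie near background. The other 2 kept probes of Srsf11 did not show this difference.

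Srsf3, the smallest SR protein, which also couples splicing to mRNA export, was at -2.97, -3.14 and -2.81 untreated and at -3.24, -3.68 and -3.74 with C5a. Every C5a value lay below every untreated value, C5a 1 by only 0.10 below untreated 2. The difference was -0.58 (SE 0.27, 95% interval -1.22 to 0.06, limma unadjusted p = 0.0699, adjusted p = 0.9992), with the probe detected on 2 arrays of each group. With normexp it was -0.35 and with the all-probe percentile -0.22, and the groups overlapped in both. Srsf7, the closest relative of Srsf3, was at -3.10, -3.38 and -2.49 untreated and at -5.77, -3.63 and -3.01 with C5a. Most of its difference of -1.15 (SE 0.70) came from C5a 1, in which the probe was not well above background, and it was -0.33 without that sample.

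Srsf2, the SR protein that binds both G-rich and C-rich exonic elements, was at -2.88, -1.65 and -2.25 untreated and at -2.26, -1.75 and -1.41 with C5a, a difference of 0.45 (SE 0.40). The groups overlapped in all but C5a 3. Srsf5 was at -4.06, -3.32 and -3.27 against -3.50, -3.55 and -3.11, a difference of 0.16 (SE 0.32). Srsf6 was at -3.08, -2.55 and -2.72 against -2.72, -2.82 and -2.83, a difference of -0.01 (SE 0.26). The 3 C5a values of Srsf6 lay within the untreated range. Srsf9 was at -1.79, -2.06 and -2.21 against -3.56, -1.82 and -2.04, a difference of -0.46 (SE 0.48). C5a 1 alone was low, and without it the difference was 0.088.

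**Figure D3:**
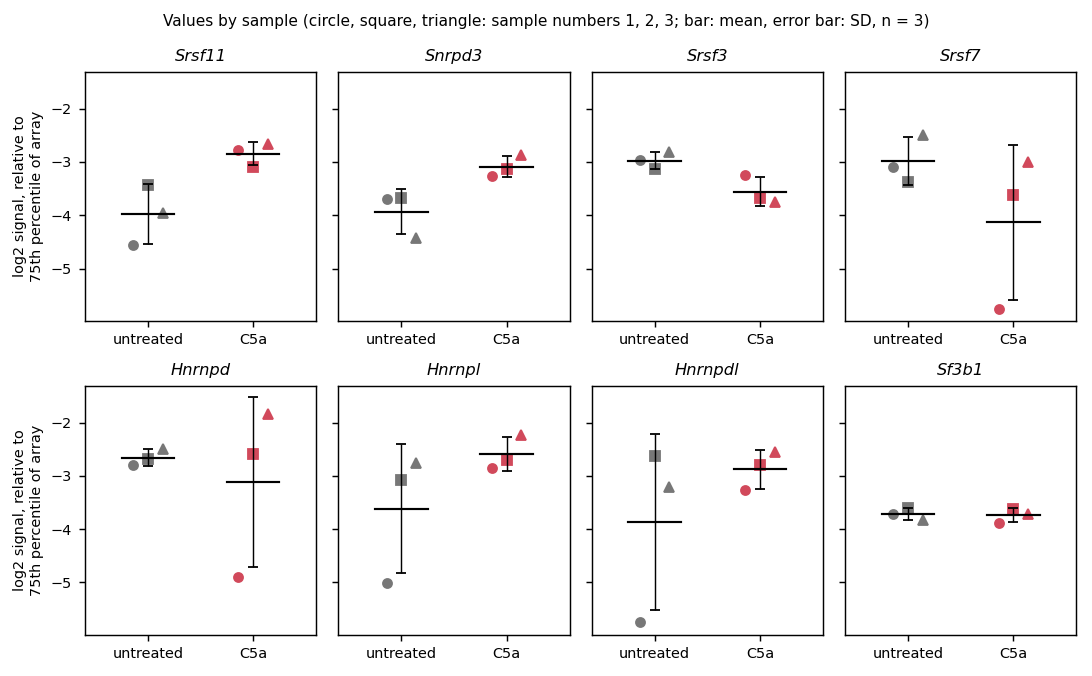
Level of 8 genes by sample (log2 signal relative to the array's 75th percentile) in untreated and C5a cells, with the mean and SD of the 3 samples per group. Srsf11, Snrpd3 and Srsf3 do not overlap between groups; in Srsf7 and Hnrnpd 1 C5a sample, and in Hnrnpl and Hnrnpdl 1 untreated sample, lies far below the rest, and Sf3b1 is level.

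The hnRNP genes leaned upwards without any passing the test: 13 of 16 differences were above 0, with a median of 0.26 and 0 groups that did not overlap. With normexp 7 of 16 were above 0, and 12 lay above the median gene; without untreated 1, 9 of 16 were above 0. Hnrnpl, which binds CA-rich RNA, was at -5.01, -3.08 and -2.75 untreated and at -2.84, -2.70 and -2.23 with C5a. Untreated 1 was the low sample and the only one in which the probe was not well above background. The difference was 1.02 (SE 0.59) and was 0.33 without it and 0.063 with normexp. Hnrnpdl, a relative of Hnrnpd, was at -5.75, -2.63 and -3.21 against -3.27, -2.80 and -2.55, a difference of 0.99 (SE 0.77) that was 0.051 without untreated 1.

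The lowest differences in the family were those of Hnrnpd and Hnrnpll. Hnrnpd (AUF1), which binds AU-rich elements of cytokine and other mRNAs and promotes their decay, was at -2.79, -2.69 and -2.49 untreated and at -4.90, -2.59 and -1.85 with C5a. The C5a samples lay on both sides of the untreated ones, C5a 1 far below, and the difference of -0.46 (SE 0.73) became 0.44 without C5a 1. Hnrnpll, known for exon skipping in the Ptprc (CD45) transcript, was at -3.50, -3.83 and -3.67 against -3.46, -4.28 and -4.61. C5a 1 was the highest of all 6 samples and C5a 2 and 3 the lowest, a difference of -0.45 (SE 0.35).

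Members near 0 included Hnrnpm, Hnrnpf and Hnrnpc, all well above background on all 6 arrays. Hnrnpm was at -2.13, -1.35 and -0.16 untreated and at -1.29, -1.51 and -0.53 with C5a, a difference of 0.11 (SE 0.54). The samples numbered 3 were the highest of each group. Hnrnpf, which binds G tracts, was at -1.03, -0.21 and 0.28 against -0.09, -0.66 and -0.64, a difference of -0.14 (SE 0.40), with all C5a values inside the untreated range. Hnrnpc, which binds U tracts in new transcripts, was at -1.39, -1.07 and -0.83 against -0.94, -1.11 and -0.80, a difference of 0.15 (SE 0.27). The untreated and C5a values of Hnrnpc were interleaved.

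The hnRNP A proteins, which are among the best known splicing repressors, had differences of about their SE or less for the probe used. They were 0.15 for Hnrnpa1 (SE 0.40), 0.42 for Hnrnpa2b1 (SE 0.42), 0.32 for Hnrnpa3 (SE 0.33) and 0.23 for Hnrnpa0 (SE 0.30). The second kept probe of Hnrnpa2b1 gave 1.15 (SE 0.55). The G-tract binders Hnrnph1, Hnrnph2 and Hnrnph3 gave 0.28, 0.41 and 0.42, with SEs of 0.40 to 0.41. Hnrnpu, a nuclear scaffold protein, gave 0.77 (SE 0.40), and Hnrnpab 0.17 (SE 0.27). The groups overlapped in every one of these genes.

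Different probes of a gene did not always give the same answer. Of the tested members, 7 had more than 1 kept probe, and in 3 (Srsf11, Srsf9 and Hnrnpc) the probes differed in sign. For Srsf11 the brightest probe gave 1.14. The second gave 0.25 (SE 0.42), with -4.01, -4.19 and -5.18 untreated and -3.62, -4.51 and -4.50 with C5a. The third gave -0.49 (SE 0.35), with -3.24, -4.14 and -4.02 against -4.66, -4.27 and -3.95. The C5a samples were thus separated from the untreated ones in 1 of the 3 probes, and the mean of the probes differed by 0.30. Which transcripts of Srsf11 each probe reads was not analysed here. Several of these families have close paralogs and processed pseudogenes, and cross-hybridisation was not tested.

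For Srsf9 the second probe, at -2.75, -2.56 and -3.08 untreated and -2.40, -2.43 and -2.61 with C5a, gave 0.31 (SE 0.27) and did not share the low value of C5a 1 seen in the first. The additional probes of Hnrnpc gave -0.02 and -0.03 beside 0.15. In the other 4 genes the probes kept 1 sign but not 1 size: 0.42 and 1.15 for Hnrnpa2b1, 0.66 and 0.12 for Snrpd2, 0.38 and 0.69 for Snrpe, and 0.16 and 0.19 for Srsf5. The second Hnrnpa2b1 probe (SE 0.55) was well above background on 1 untreated array and all 3 C5a arrays. The second Snrpe probe, at -3.20, -3.89 and -4.06 untreated and -3.08, -3.11 and -2.91 with C5a, did not overlap between groups (SE 0.31).

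**Figure D4:**
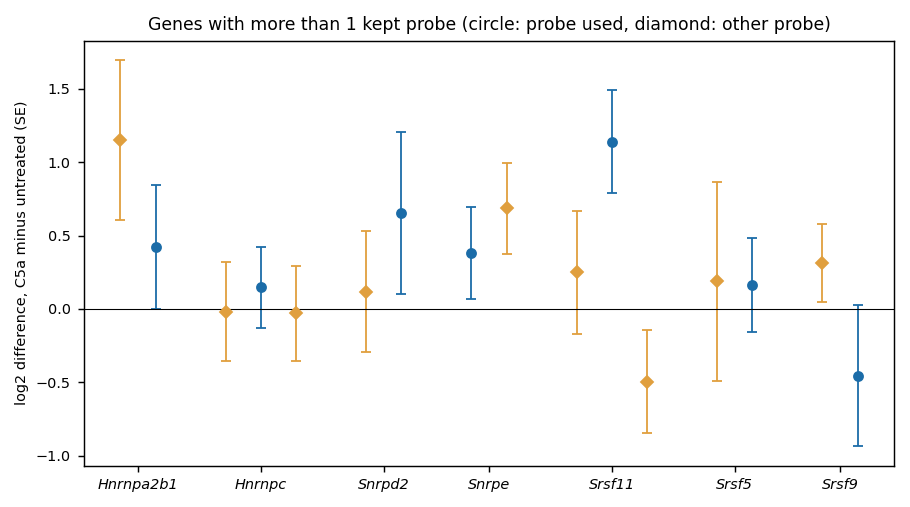
Log2 difference (C5a minus untreated) of every kept probe of the 7 genes with more than 1, with the brightest probe, used for the gene, as a circle and the others as diamonds. The probes of Srsf11 spread from -0.49 to 1.14, and those of Srsf5 lie together.

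Samples that share a number in the labels also deviated together from their group means, and the positive lean differed between these pairs. In pair 1 (C5a 1 minus untreated 1) 32 of 42 members were higher with C5a, with a median of 0.41 against 0.12 for all genes. In pair 3, 30 of 42 were, with a median of 0.16 against 0.00. In pair 2, the only pair in which all 42 members were well above background on both arrays, 19 of 42 were higher, and the median of -0.03 equalled that of all genes. Within pair 2, 36 of 42 members differed by less than 0.5, against 22 in pair 1 and 25 in pair 3. Both arrays detected the member in 27 cases in pair 1, 20 of them higher with C5a, and in 17 in pair 3, 13 of them higher. The pair with the fullest detection thus had the smallest differences, and the part of detection in this was not tested.

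Counts by family also differed between the pairs. In pair 1, 15 of 16 hnRNP genes were higher with C5a, in pair 3 13 of 16, and in pair 2 6 of 16. The snRNP genes were higher in 9, 6 and 8 of 10 in pairs 1, 2 and 3, and SF3A and SF3B genes in 4, 5 and 5 of 9. C5a was higher in all 3 pairs for 10 of 42 members (23.8%), against 14.4% of all genes: Snrpc, Snrpd1, Snrpd3, Snrpe, Srsf11, Hnrnpa1, Hnrnpa2b1, Hnrnpa3, Hnrnph2 and Hnrnpl. It was lower in all 3 for 2 (4.76%), Srsf3 and Srsf7, against 10.8%. Srsf11 differed by 1.78, 0.34 and 1.30 in pairs 1, 2 and 3, Snrpd3 by 0.44, 0.55 and 1.55, and Srsf3 by -0.27, -0.54 and -0.93. With the sample number as a block in limma, 0 members and 0 of 4488 genes were called, and 2 of 42 members (4.76%, Srsf11 and Snrpd3) had an unadjusted p under 0.05, against 4.23% of all genes.

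**Figure D5:**
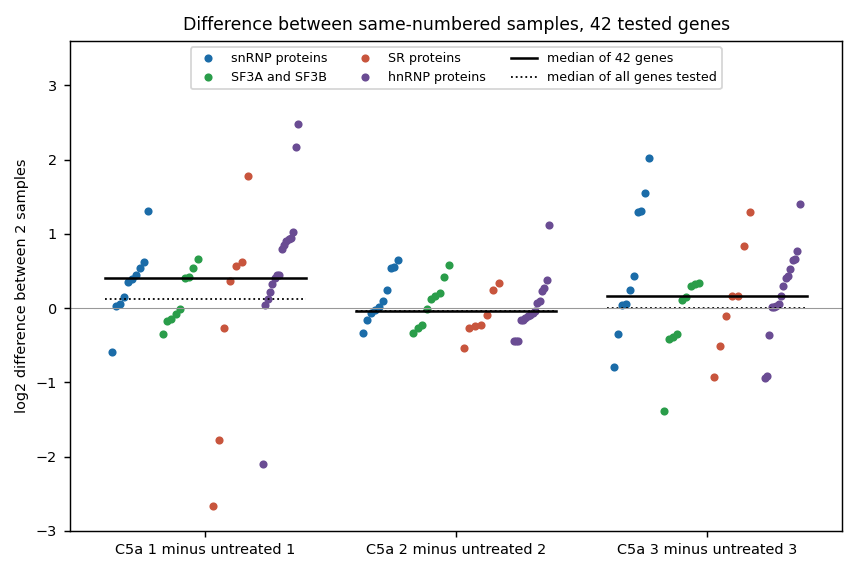
Log2 difference between the C5a and untreated samples of the same number for each of the 42 tested genes, coloured by family, with the line at 0 marking no difference. Points of pair 2 lie close to 0 (36 of 42 within 0.5), and those of pairs 1 and 3 spread wider, mostly above 0.

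Over the 6 samples, the members whose levels had the highest Pearson correlation with Srsf11 were Hnrnpu (Pearson r 0.904, Spearman rho 0.771), Snrpa (0.860 and 0.829) and Hnrnpl (0.821 and 0.714). By Spearman's rho the order differed, with Snrpd3 (0.886) first and Sf3a1 (0.829) level with Snrpa. These are descriptions over 6 arrays that share the group difference and its detection, and carry no p. In all 3, as in Srsf11, untreated 1 was the lowest of the 6 samples and C5a 3 the highest.

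Other spliceosome genes and splicing regulators from a list of 142, of which 140 were on the array, were read in the same fit. Of these, 60 were tested and 55 were detected on 0 arrays. None of the 60 was called by limma with Benjamini-Hochberg adjustment, and 2 had an unadjusted p under 0.05 (3.33%, against 2.34% of all genes). In 6 the groups did not overlap (10%, against 5.68%): Prpf6, Raly, Rbm17, Srrm2, Usp39 and Wbp11. Raly and Srrm2 were well above background on all 6 arrays. Prpf6, Rbm17, Usp39 and Wbp11 were so on 1 untreated and 2 C5a arrays, so values near background enter the 10%. The difference was above 0 in 38 of the 60 (63.3%, against 54.9%) and below 0 in 22, with a median of 0.08 against 0.04. The smallest unadjusted p among positive differences were those of Rbm17 and Tra2a. Rbm17 (SPF45, an alternative 3′ splice site factor) was at 0.93 (SE 0.36, limma unadjusted p = 0.0339) and Tra2a at 0.90 (SE 0.42). Both signs turned with normexp. Only 1 untreated array detected each gene, against 2 C5a arrays for Rbm17 and 3 for Tra2a. The filter was thus passed mainly through the group with the higher values, and most untreated values of both genes lie near background. Raly, an hnRNP-like protein, differed by -0.66 (SE 0.27, limma unadjusted p = 0.0431), and Usp39, which the tri-snRNP needs to join the spliceosome, by -0.79 (SE 0.37). Raly was well above background on all 6 arrays, at -1.72, -1.91 and -2.19 untreated and -2.47, -2.52 and -2.81 with C5a, so every C5a sample lay below every untreated one. None of these differences passed the adjusted test.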

How the data were processed

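Levels came from 6 one-colour Agilent arrays (design 074809), all on 1 slide, read with Feature Extraction 10.10.1.1 under protocol GE1_1100_Jul11, per the file headers. The deposited scanner files give spot intensity, as a background-subtracted processed signal with no scaling between arrays, and 0 or 1 flags, per the file headers. Values in the series table that the authors deposited are log2: differences between its columns matched, within 0.01 in 98.9% of cases, those of log2 processed signal scaled to the 75th percentile of all probes on an array, while the baseline subtracted per probe is unknown. Its column medians were 0.17, -0.08 and 0.18 (untreated 1 to 3) and 0.01, -0.02 and 0.22 (C5a 1 to 3).

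Control spots were left out. Spots marked as outliers (112 to 138 per array) were left out unless every spot of the probe was marked, in which case they were kept. The 59305 non-control spots covered 56605 probes, so most probes had 1 spot. On all arrays 0 spots were saturated. Spots of a probe were averaged as log2 processed signal and scaled by subtracting, per array, the 75th percentile among the 2370 probes detected well above background on every array. That percentile was 109 to 460 before scaling. Genes were kept where a probe was well above background on at least 3 of 6 arrays, with the brightest kept probe per gene, which left 4488 genes (3276 with a symbol, 1212 by probe only). Accessions without versions were named through a RefSeq table of GRCm38.p6, which matched 32994 of 56605 probes; promoter windows are RefSeq's for that build. The C5a comparison used lmFit and eBayes of limma 3.58.1 in R 4.3.3, with Benjamini-Hochberg adjustment over all genes at 0.05, run first on simulated data. The number of arrays limits the precision.

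Members, families and gene lists were chosen with earlier results of these data known, so list counts are descriptions with no test. Named with values by sample were, per family, the 2 largest positive, the 2 largest negative and the 2 smallest differences, all members whose groups did not overlap, and those whose probes differed in sign. Other members are given by their difference alone. Deviations from group means correlated at 0.211, 0.269 and 0.384 between same-numbered samples and at -0.252 to 0.071 between others. The numbers, taken from the labels, were therefore read as pairs, though the labels do not say what same-numbered samples share. In both groups the array numbered 2 detected most probes and that numbered 3 fewest. A shared origin cannot be told apart from this likeness in detection. Slide row 1 held untreated 1 to 3 and C5a 1, and row 2 held C5a 2 and 3. Alternatives were normexp on median signals (offset 50), the all-probe percentile, quantile normalization, no filter or a filter on all 6 arrays, the deposited table, the mean of kept probes, the replicate block, slide row, an intensity trend and leaving out samples.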

Additional observations from a re-analysis of the deposited data

How the results depend on the processing

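No splicing gene was called under any alternative that was run. Without the filter on dim probes 47 of 46522 genes (0.101%) were called, 0 of the 53 members among them. At that share, 0 of 53 does not set the members apart. With the replicate number as a block, 0 members were called, and the block changed no call. The count of 3 members whose groups do not overlap was 0 with normexp, with the all-probe percentile and with the deposited table. It was also 0 among the 16 members seen on all 6 arrays, against 95 of 2178 of all genes so detected. Leaving out samples gave 5 to 8, since smaller groups separate more easily. For the other settings the count over all genes is not given here, so the members' counts describe the members alone. The median difference of 0.16 was -0.11 with normexp, 0.52 with the all-probe percentile and 0.52 in the deposited table, where the median of all genes was -0.12, 0.40 and 0.40; leaving out samples gave 0.050 to 0.23, the lowest without untreated 1.

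Of the 42 tested members, 9 kept their sign in every alternative (Snrpd1, Snrpd3, Snrpe, Srsf3, Srsf7, Srsf11, Hnrnpa3, Hnrnph3 and Hnrnpl), though not their size: with normexp Srsf11 was 0.032, Snrpd3 0.041, Hnrnpl 0.063 and Srsf7 -0.22 (1.14, 0.85, 1.02 and -1.15 as reported), and with slide row Srsf7 was -2.78. Another 18 changed sign when a sample was left out. Among the members named with values by sample, these turned. With normexp, Hnrnpdl was -0.073, Hnrnpm -0.029, Sf3a1 -0.10, Sf3a3 -0.070, Sf3b6 -0.15, Snrpa -0.15, Srsf2 -0.11 and Srsf5 -0.24. With the all-probe percentile and in the deposited table, Hnrnpf was 0.22 and 0.22, Sf3b1 0.34 and 0.34, Sf3b3 0.24 and 0.24, Sf3b5 0.27 and 0.27, Snrpf 0.28 and 0.28, Snrpg 0.32 and 0.33, and Srsf6 0.36 and 0.36. With quantile normalization, Sf3b1 was 0.19, Sf3b5 0.039 and Srsf6 0.010. With slide row as a covariate, which in row 1 sets C5a 1 alone against 3 untreated samples, Hnrnpf was 0.23, Hnrnpll 0.21, Hnrnpm -0.070, Sf3b5 0.17, Snrpf 0.67, Snrpg 0.34 and Srsf6 0.062; row 2 holds C5a samples only. Leaving out samples gave ranges of -0.00058 to 0.28 for Hnrnpc, -1.09 to 0.44 for Hnrnpd, -0.50 to 0.25 for Hnrnpf, -0.35 to 0.64 for Hnrnpm, -0.093 to 0.047 for Sf3b1, -0.21 to 0.024 for Sf3b3, -0.23 to 0.082 for Sf3b5, -0.12 to 0.36 for Sf3b6, -0.46 to 0.27 for Snrpf, -0.23 to 0.11 for Snrpg, -0.093 to 0.30 for Srsf5, -0.15 to 0.11 for Srsf6 and -0.78 to 0.088 for Srsf9. Leaving out both samples numbered 3 was added after the data were seen. The all-probe percentile adds the same amount to every gene; for normexp and the other alternatives the cause of a change of sign was not tested. By the scanner's positive-and-significant flag 51 members were detected, and asking every spot of a probe to be well above background gave 42.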
